A study of Mus musculus with 26 samples.

Results

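Described here are 10 genes of the BCL2 family, Bcl2, Bcl2l1, Mcl1, Bcl2l11, Bik, Bmf, Bbc3, Pmaip1, Bax and Bak1, chosen by name out of 21631 protein-coding genes of the mouse annotation. Every H3K4me3 peak that overlapped a gene's mm10 span or the 5 kb on either side of it was counted as a peak of that gene. This gave 40 peaks out of 48054 in Early-B cells and 37 out of 31414 in Ebf1-/- progenitors. Both groups carry the Ebf1-/- genotype and so lack their own copy of EBF1, the transcription factor that specifies B cells. The Early-B cells are these progenitors after EBF1 was returned through the MigR1-EBF1.ER vector, a fusion that 4-O-Hydroxy-tamoxifen switches on, during 2 days on OP9 stromal cells, a mouse bone marrow line, with SCF, FLT3-L and IL-7. No source used here gives the culture of the progenitors or says whether they received an empty vector. EBF1 in the Early-B cells therefore comes from a vector and not from its own locus, and EBF1 and culture cannot be told apart. The labels list 2 immunoprecipitated and 2 input DNA samples per group, and 1 peak list was given for each group. No replicate spread was available, so no difference below has a test. The lists hold no read counts, and the depth behind each peak is unknown.

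The BCL2 family decides at the outer mitochondrial membrane whether a cell survives. BCL2, BCL-XL (from Bcl2l1) and MCL1 hold the pore-forming effectors BAX and BAK in check. The BH3-only proteins BIM (Bcl2l11), BIK, BMF, PUMA (Bbc3) and NOXA (Pmaip1) bind the guardians or the effectors and so tip the cell toward release of cytochrome c and caspase activation. In lymphoid progenitors, IL-7 signalling is known to sustain BCL2 and MCL1, while BIM removes cells that lose that support. H3K4me3, trimethylation of histone H3 at lysine 4, marks promoters that are transcribed or held ready, and a peak does not measure transcript level.

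The promoters of 4 genes are shown because the results below turn on them. Mcl1 led the family by pileup (the authors' read coverage over a peak) in Early-B cells. Bmf had the lowest pileup of the 9 genes with a peak in both lists. At Bcl2 and Bcl2l11 the main Early-B peak ended 4410 and 1110 bp earlier inside the gene than the progenitor one. The same gap was smaller at Bcl2l1 (487 bp), Bax (101 bp) and Bbc3 (34 bp). Each sequence is the 250 bases before an annotated start site, the outermost one listed for that gene, from RefSeq on GRCm38.p6 (the assembly of mm10), written 5′ to 3′ on the gene's strand. Capitals mark matches, on either strand, to the EBF1 core CCCNNGGG, the FOXO core GTAAACA, the E-box CAGGTG or the TATA box TATAAA, and no matches in these 4 sequences overlapped each other.
Mcl1 (plus strand, chr3:95658471-95658720): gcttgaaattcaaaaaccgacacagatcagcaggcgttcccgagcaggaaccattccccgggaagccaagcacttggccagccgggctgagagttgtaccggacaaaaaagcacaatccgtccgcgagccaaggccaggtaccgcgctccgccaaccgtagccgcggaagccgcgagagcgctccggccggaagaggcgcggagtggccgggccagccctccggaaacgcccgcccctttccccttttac
Bcl2 (minus strand, chr1:106714291-106714540): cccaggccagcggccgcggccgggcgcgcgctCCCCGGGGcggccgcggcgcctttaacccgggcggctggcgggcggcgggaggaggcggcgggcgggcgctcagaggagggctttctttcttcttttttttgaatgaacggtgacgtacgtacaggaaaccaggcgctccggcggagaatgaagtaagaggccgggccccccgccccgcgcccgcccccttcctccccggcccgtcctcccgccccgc
Bcl2l11 (plus strand, chr2:128125788-128126037): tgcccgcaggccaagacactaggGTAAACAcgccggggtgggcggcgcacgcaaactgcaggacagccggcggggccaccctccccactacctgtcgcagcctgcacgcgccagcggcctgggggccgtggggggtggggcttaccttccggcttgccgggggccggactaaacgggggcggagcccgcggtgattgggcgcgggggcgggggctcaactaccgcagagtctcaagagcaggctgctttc
Bmf (minus strand, chr2:118549687-118549936): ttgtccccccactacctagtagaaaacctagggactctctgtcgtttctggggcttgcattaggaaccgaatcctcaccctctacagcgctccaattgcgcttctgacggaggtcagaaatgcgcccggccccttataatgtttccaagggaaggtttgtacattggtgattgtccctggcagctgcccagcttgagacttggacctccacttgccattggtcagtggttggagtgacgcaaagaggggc

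These promoters differ in composition. GC content was 64.4% at Mcl1, 74.8% at Bcl2, 72.0% at Bcl2l11 and 54.0% at Bmf, beside a median of 55.6% over 21045 promoters of protein-coding genes. The ratio of observed to expected CpG dinucleotides was 1.01 at Mcl1, 1.03 at Bcl2, 0.748 at Bcl2l11 and 0.439 at Bmf, beside a median of 0.537. Bmf thus had the promoter poorest in CpG of the 4, but not of the family. At Bak1, not shown, the ratio was 0.38, and its pileup was number 3 in Early-B cells and number 2 in progenitors. A link of CpG content to pileup was not tested. The Bcl2 sequence held 1 EBF1 core, beginning 218 bases before the start site, and 13.7% of all promoters hold one. The Bcl2l11 sequence held 1 FOXO core, beginning 227 bases before the start site, which 2.64% of all promoters hold. Neither match was particular to these genes within the family. Among promoters not shown, 1 of Bbc3 also held a FOXO core, and 1 of Bbc3 and 1 of Bcl2l1 held an EBF1 core. FOXO factors are known to regulate Bcl2l11 in lymphocytes, and a match of letters is not a binding site. The E-box (17.0% of all promoters) and the TATA box (11.7%) had no match in the 4 sequences. All 15 start sites listed for 8 of the genes lay under a peak in Early-B cells and under a peak in progenitors. Counted by gene, all 8 had at least 1 start site under a peak in each list, beside 52.9% of all protein-coding genes with a listed start site. Bik and Pmaip1 have no sequence here.

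The family was, with the exception of Bik, marked in both groups. In all, 9 of the 10 genes had a peak in both lists, against 65.2% of all protein-coding genes, and Bik had a peak in progenitors only, a class that holds 1.78% of all genes. No gene of the 10 was marked in Early-B cells alone or in neither group, classes that hold 8.57% and 24.4% of all genes. At each of the 9 genes the leading peak, the one with the highest −log10 p given by the authors, overlapped the leading peak of the other list. Most of the remaining peaks were weak. Of 31 peaks in Early-B cells that did not lead, 17 had a q above 0.05, and 8 reached a −log10 p of 10. Of 27 such peaks in progenitors, 19 had a q above 0.05 and 5 reached a −log10 p of 10. Over all peaks of the 10 genes, 42.5% in Early-B cells and 51.4% in progenitors had a q above 0.05, beside 27.1% of all Early-B peaks and 29.4% of all progenitor peaks at protein-coding genes.

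**Figure D1:**
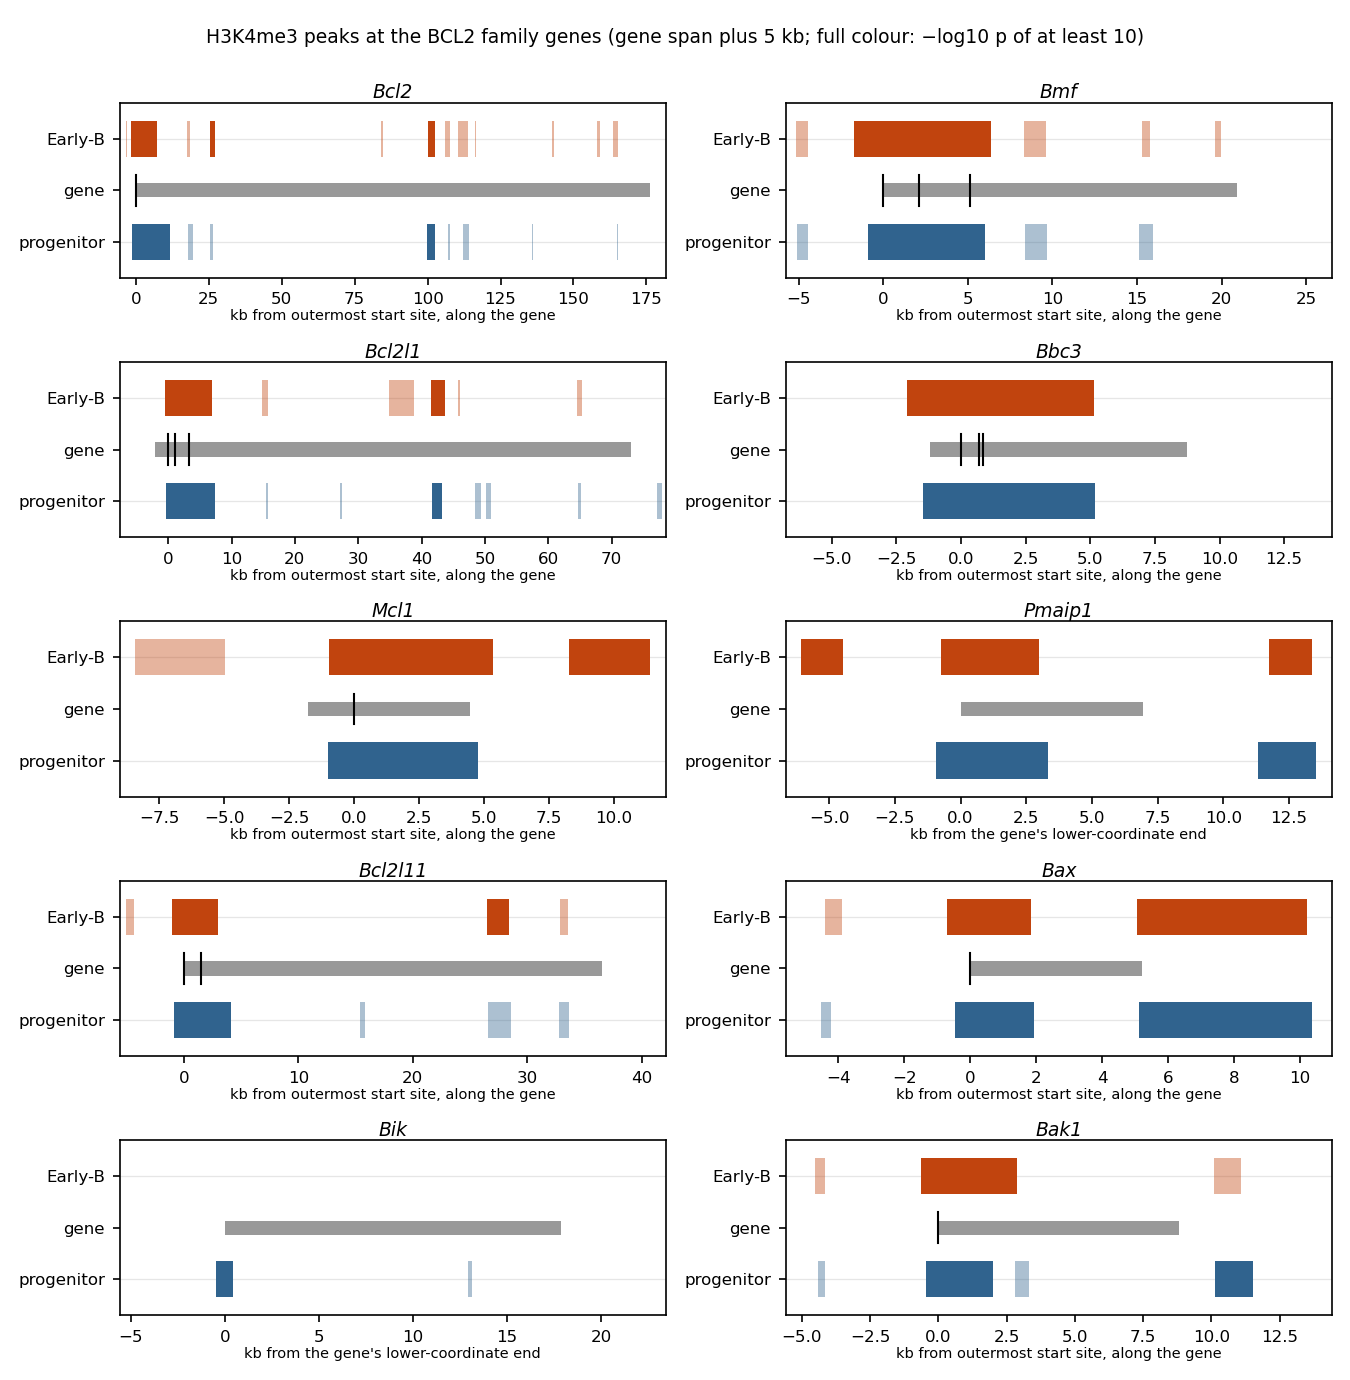
H3K4me3 peaks at the 10 genes in Early-B cells (upper row of each panel) and progenitors (lower row), drawn over the gene span (grey, black ticks for listed start sites); the horizontal axis is the distance in kb from the outermost start site along the gene, or from the lower-coordinate end for Bik and Pmaip1. Full colour marks a −log10 p of 10 or more , pale colour a lower one; every gene but Bik has a full-colour peak on its span in both lists.

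Among the guardians, Bcl2 carried the widest peak of the family in both groups. The gene spans 106538176 to 106714290 on chromosome 1 and is read from the higher coordinate. In Early-B cells its leading peak ran from 106707175 to 106715831, which is 8657 bp, with a pileup of 122 and a −log10 p score of 123.5. In progenitors it ran from 106702765 to 106715625, which is 12861 bp, with a pileup of 198 and a −log10 p of 232.7. The 2 peaks ended within 206 bp of each other upstream of the start site, and the difference lay inside the gene. There the Early-B peak reached 7115 bp past the start site and the progenitor peak 11525 bp, so that 4410 bp of the gene were covered in progenitors alone, with no Early-B peak of any strength in that stretch. Among 14107 protein-coding genes with a peak in both lists, 6.81% had a lower log2 ratio of Early-B to progenitor width than Bcl2 (-0.57). By width, Bcl2 stood in the top 2.46% of these genes for Early-B cells and in the top 0.365% for progenitors, and such ranks describe each list on its own.

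Further peaks lay deep inside Bcl2. Early-B cells had 12 peaks at the gene and progenitors had 8, but 7 of the 12 and 6 of the 8 had a q above 0.05. The 1167 protein-coding genes at least as long as Bcl2, those without any peak included, had a median of 4 peaks for Early-B cells and 1 for progenitors. These medians also count peaks of any strength. The strongest internal peak lay past the middle of the gene in both groups, at 106611678 to 106614138 in Early-B cells with a pileup of 39.5 and at 106611628 to 106614454 in progenitors with a pileup of 28.2. It overlapped Gm37053, another annotated gene inside Bcl2, and which of the genes it belongs to was not tested. A second internal peak, 25523 bp from the start site in Early-B cells and 25505 bp in progenitors, scored 16.7 on the −log10 p scale in Early-B cells and 3.002 in progenitors, where its q exceeded 0.05. Since the lists were called separately and their scaling is not given, these values rank peaks within a list and do not measure a change. The gene table gives no exons, so whether these peaks lie in exons or introns was not determined.

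Bcl2l1, which encodes BCL-XL, differed little in width between the groups. Its leading peak covered 7470 bp in Early-B cells (chromosome 2, 152824783 to 152832252) and 7704 bp in progenitors (152824296 to 152831999), and the 2 shared 90.7% of their joint length. The pileup was 110.3 in Early-B cells and 103.5 in progenitors. Both peaks covered all 3 listed start sites of the gene. As at Bcl2, a strong peak also lay inside the gene in both groups, 41422 bp from the outermost start site in Early-B cells (2230 bp wide, −log10 p 22.4) and 41573 bp from it in progenitors (1688 bp, 20.5). A progenitor peak 4119 bp below the gene (7.79) touched the neighbouring gene Cox4i2 and met no Early-B peak.

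Mcl1 stood first in the family by pileup in Early-B cells but not in progenitors, where 4 genes stood above it. By fold enrichment it had 21.0 in Early-B cells, below Bcl2l11 (23.8) and Bak1 (22.8), and 22.75 in progenitors. Its leading peak, with a pileup of 228 in Early-B cells and 192 in progenitors, covered nearly the whole gene, which spans 95656944 to 95663179 on chromosome 3. The peak was 6315 bp wide in Early-B cells (95657738 to 95664052) and 5744 bp in progenitors (95657728 to 95663471). The extra length lay just past the far end of the gene, where the Early-B peak reached 581 bp further. Among the 14107 genes with a peak in both lists, Mcl1 stood in the top 0.475% by pileup for Early-B cells and in the top 20.7% for progenitors. A weak Early-B peak of 3444 bp, 3210 bp below the gene, had a −log10 p of 1.98 and a q above 0.05, and met no progenitor peak. A stronger Early-B peak began 3812 bp past the gene and covered 3131 bp with a −log10 p of 36.3. It met a 1366-bp progenitor peak with a −log10 p of 5.17 that begins 5266 bp past the gene and so falls outside the 5 kb counted here. The start of Mcl1 and this flanking region were thus marked in both groups.

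**Figure D2:**
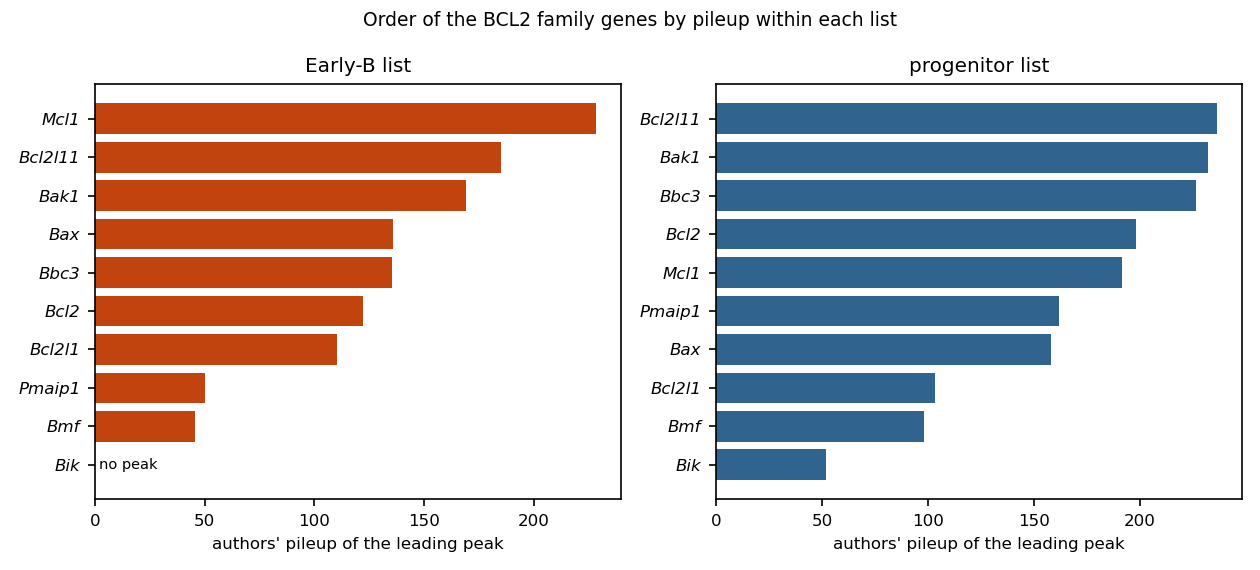
The authors' pileup of the leading H3K4me3 peak of each gene in the Early-B list (left) and the progenitor list (right), each sorted by its own values; the scaling of pileup between the lists is not given, so only the order within a panel can be read. Mcl1 leads in Early-B cells and Bcl2l11 in progenitors, and Bmf is last of the 9 genes in Early-B cells, where Bik has no peak, and second to last in progenitors, before Bik.

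Of the 5 BH3-only genes, 4 were marked in both groups and Bik in progenitors only. Bcl2l11, which encodes BIM, spans 128126038 to 128162547 on chromosome 2. Its leading peak was 4077 bp wide in Early-B cells (128124995 to 128129071, pileup 185) and 4973 bp in progenitors (128125209 to 128130181, pileup 237). As at Bcl2, the Early-B peak ended earlier inside the gene, by 1110 bp, while upstream it reached 214 bp further. The log2 width ratio was -0.29, and 13.6% of genes with a peak in both lists had a lower one. An internal peak 26506 bp from the outermost start site in Early-B cells scored 11.9, and its counterpart at 26560 bp in progenitors had 4.35. The leading peak also overlaps the annotated span of Acoxl, a neighbour.

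Bbc3, which encodes the p53 target PUMA, was covered by 1 wide peak and nothing else in either group. It measured 7235 bp in Early-B cells (chromosome 7, 16307494 to 16314728, pileup 136) and 6656 bp in progenitors (16308107 to 16314762, pileup 226), and held all 3 listed start sites. The inner edges of the 2 peaks lay 34 bp apart, and the difference in width came from 613 bp upstream in Early-B cells.

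Pmaip1, which encodes NOXA, another p53 target, had 3 peaks in Early-B cells and 2 in progenitors. Its leading peak covered 3713 bp in Early-B cells and 4254 bp in progenitors, and the Early-B peak lay wholly within the progenitor one. The pileup was 50.2 in Early-B cells, eighth of the 9 marked genes, and 162 in progenitors, sixth of the 10. An Early-B peak that met no progenitor peak lay 4484 bp below the gene and covered 1580 bp with a −log10 p of 30.9, not far from the 34.8 of the leading peak in the same list. Of all Early-B peaks at protein-coding genes, 1.32% met no progenitor peak and reached a −log10 p of 30, a cutoff just below the 30.9 of this peak that was not varied. The nearest progenitor peak was 3547 bp away and was the leading peak of the gene itself. A further region, 4773 bp above the gene in Early-B cells and 4353 bp above it in progenitors, was marked in both groups and scored 17.8 in Early-B cells and 84.5 in progenitors. The promoter table holds no entry for Pmaip1, so its strand was not used.

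Bmf, whose product is held at the actin cytoskeleton until released, had the lowest pileup of the genes marked in both groups, 45.8 in Early-B cells and 98.2 in progenitors. Its peak was wide nonetheless. It ran over 8129 bp in Early-B cells (chromosome 2, 118543312 to 118551440) and 6929 bp in progenitors (118543675 to 118550603), and the Early-B peak contained the progenitor one whole. By width Bmf stood in the top 3.07% of genes for Early-B cells and the top 3.88% for progenitors, and by pileup only in the top 80.7% for Early-B cells and 71.6% for progenitors. Its 3 listed start sites, at 118549686, 118547599 and 118544587, lay toward the end of higher coordinate, where the gene begins, and all were under that peak.

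Bik, a BH3-only protein of the endoplasmic reticulum, was the exception. No Early-B peak overlapped the gene, which spans 83526790 to 83544635 on chromosome 15, or the 5 kb around it. In progenitors a 936-bp peak from 83526298 to 83527233 straddled the end of lower coordinate, with a pileup of 51.9, a fold enrichment of 6.82 and a −log10 p of 30.8. A second progenitor peak of 217 bp inside the gene had a −log10 p of 1.34 and a q above 0.05. The nearest Early-B peak to the 936-bp peak was 14897 bp away, outside the window, and another Early-B peak began at 83554369, beyond the far end of the gene. Of all progenitor peaks at protein-coding genes, 21.2% met no Early-B peak, but 7 of 23344 (0.03%) did so and reached a −log10 p of 30, and the Bik peak is 1 of the 7. The cutoff of 30 lies just below the 30.8 of the Bik peak and was not varied, so how far this share depends on it is unknown. The Bik peak was nonetheless the weakest and narrowest leading peak of the family in progenitors.

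The effector genes Bax and Bak1 had the narrowest leading peaks of the 9 genes marked in both groups. By pileup Bak1 was number 3 and Bax number 4 of the 9 in Early-B cells, and Bak1 number 2 and Bax number 7 of the 10 in progenitors. At Bax, which spans 45461695 to 45466903 on chromosome 7, the leading peak covered 2558 bp in Early-B cells (45465054 to 45467611, pileup 136) and 2417 bp in progenitors (45464953 to 45467369, pileup 158). It held the 1 listed start site in both. A wider peak at the other end of the gene, 5172 bp in Early-B cells and 5250 bp in progenitors, covered a start site of Ftl1, the ferritin light chain gene, and which gene it belongs to was not tested. In progenitors that peak had a slightly higher pileup (159) than the one at the Bax start site, so the choice of leading peak there was close.

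At Bak1 the leading peak had the largest width ratio of the family, with 3506 bp in Early-B cells (chromosome 17, 27025760 to 27029265, pileup 169) and 2454 bp in progenitors (27026622 to 27029075, pileup 232). The log2 width ratio of 0.51 was not extreme, since 79.2% of genes had a lower one. The extra 862 bp lay inside the gene, and there the Early-B peak also met a second, 498-bp progenitor peak with a −log10 p of 1.33. The 2 shared only 59 bp, so most of the extra length met no progenitor peak. The Early-B peak ended at 27029265 and so also covered the start site of Ggnbp1 at 27029259, which the progenitor peak did not reach.

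Taking the 9 genes with a peak in both lists, the leading peak was wider in Early-B cells at 5 (Mcl1, Bmf, Bbc3, Bax and Bak1) and narrower at 4 (Bcl2, Bcl2l1, Bcl2l11 and Pmaip1). Over all 14107 genes with a peak in both lists it was wider in Early-B cells at 65.4%. The median log2 width ratio was 0.08 over the 9 genes and 0.13 over all such genes. The differences were small at most of the 9, with only Bcl2 and Bak1 beyond 0.5 in either direction. Guardians, BH3-only genes and effectors did not separate by this measure, since guardians and BH3-only genes each fell on both sides, while the leading peaks of both effectors were wider in Early-B cells. At Bax that direction turned with the widest peak as leading (log2 ratio -0.022) or the one of highest pileup (-1.04). By the length covered by all peaks of a gene, of any strength, 8 of the 9 genes had more in Early-B cells, Bcl2l11 being the exception. The same share over all protein-coding genes was not computed, and the Early-B list is longer, with 48054 peaks against 31414. Mcl1 had the largest log2 ratio with 1.17, against 0.085 at Bak1. At Mcl1 the Early-B peak past the gene was counted, while the progenitor peak it met fell outside the 5 kb. A weak Early-B peak below Mcl1 (q above 0.05) was counted too.

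**Figure D3:**
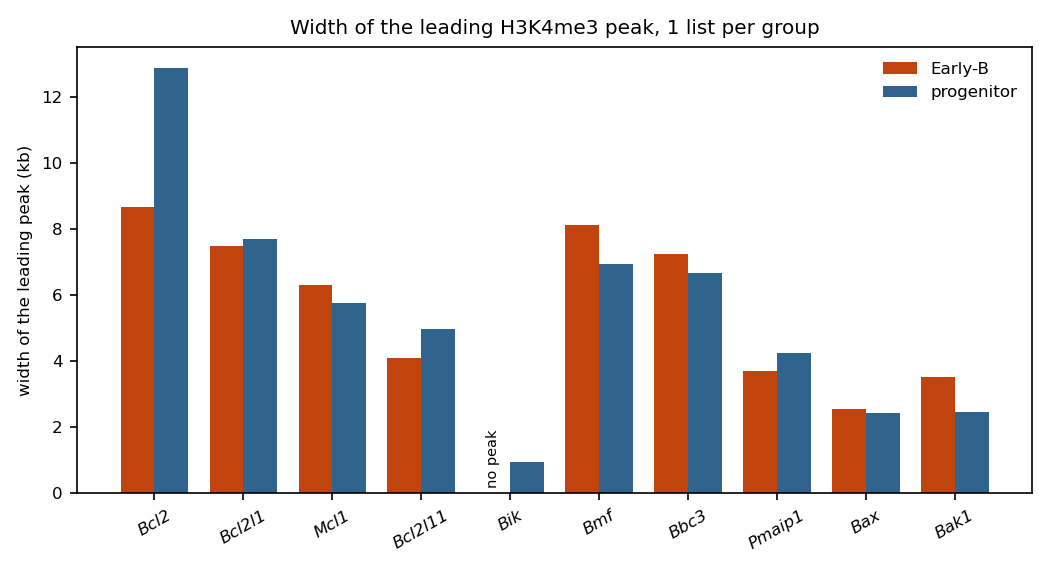
Width in kb of the leading H3K4me3 peak at each gene in Early-B cells (left bar) and progenitors (right bar), 1 list per group and therefore no error bar. Bcl2 has the widest peak in both lists and the largest gap, 8657 bp in Early-B cells against 12861 bp in progenitors, and Bik has no Early-B peak.

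**Figure D4:**
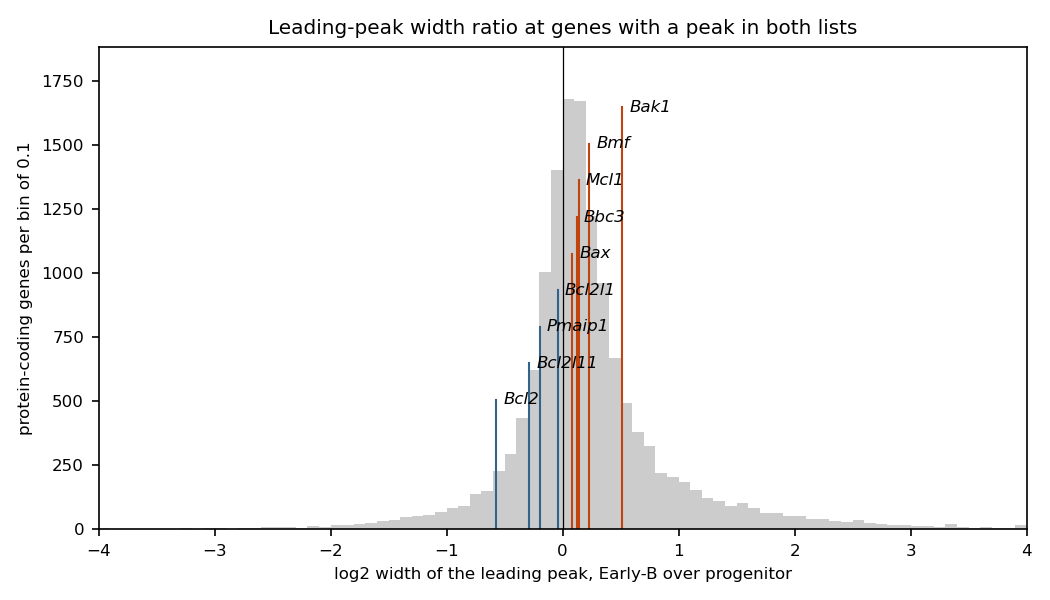
Distribution of the log2 width ratio of the leading peak, Early-B over progenitor, over 14107 protein-coding genes with a peak in both lists (grey, bins of 0.1, ratios beyond the axis placed in the end bins), with the 9 BCL2 family genes as lines whose heights only separate the names. Bcl2 at -0.57 and Bak1 at 0.51 are the outermost of the family, and both lie within the body of the distribution.

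Peaks that met no peak of the other list were mostly weak. In Early-B cells 11 of the 40 peaks (27.5%) met no progenitor peak, against 38.5% of all Early-B peaks at protein-coding genes. Of these 11, 10 had a q above 0.05, the exception being the peak below Pmaip1, and 7 belonged to Bcl2 and Bcl2l1, 1 of them 2893 bp outside the Bcl2 span. In progenitors 8 of the 37 peaks (21.6%) met no Early-B peak, against the 21.2% given above, and 6 had a q above 0.05, the exceptions being the Bik peak and the one that touched Cox4i2. At least 1 such peak was found at 6 of the 10 genes in Early-B cells, against 31.0% of all genes, and at 4 of 10 in progenitors, against 16.7%. All genes here include the 24.4% with no peak in either list, which cannot hold such a peak, so these shares are low for a comparison with marked genes. Bcl2 and Bcl2l1 span 176115 and 75072 bp beside a median of 17329 bp, and the part of gene length in these shares was not tested. With the Early-B list cut to the length of the progenitor list, peaks that met none of the other list numbered 1 in Early-B cells and 15 in progenitors, so that the list with more of them changed.

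Markers of other cells were set beside these counts. Of 9 early B genes, 9 had a peak in Early-B cells and 7 in progenitors, where those near Vpreb1 (−log10 p 179.3) and Cd79a (128.7) were strong. Start sites are listed for 7 of them, and 7 lay under a peak in Early-B cells and 0 in progenitors. All 5 blood cell genes (Ptprc, Spi1, Ikzf1, Cd48 and Coro1a) had a peak in both groups. Of 12 stromal and mesenchymal genes, 11 had a peak in Early-B cells and 5 in progenitors, and Dcn had none in either. Of the 7 stromal genes with a listed start site, 6 had one under a peak in Early-B cells and 0 in progenitors, close to the pattern of the early B genes. Their strongest peak scored 35.0 on the −log10 p scale in Early-B cells and 15.5 in progenitors, and none reached 50, which 7 of the 10 BCL2 family genes passed in Early-B cells and 9 in progenitors. The leading peaks of the stromal genes covered 26438 bp in Early-B cells and 7017 bp in progenitors. The part of stromal chromatin in the Early-B peaks of the BCL2 family, the one below Pmaip1 included, was not tested. Of 6 genes of other tissues, Nphs1 had a peak in both groups, Myh6 and Myh7 in Early-B cells only and 3 in neither.

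Other genes of the apoptosis pathway gave the family its context. Of 15 further BCL2 family genes, 14 had a peak in both lists and Bcl2l10 had none in either. The leading peak was wider in Early-B cells at 9 of the 14 and narrower at 5, with a median log2 ratio of 0.19. The largest differences were at Bok, a relative of the effectors (1930 bp in Early-B cells against 891 bp in progenitors), the BH3-only gene Hrk (809 bp in Early-B cells against 1548 bp in progenitors), Bcl2l12 (5294 bp in Early-B cells against 3558 bp in progenitors) and the BH3-only gene Bad (2929 bp in Early-B cells against 4272 bp in progenitors). Of these, Bok and Hrk were weakly marked. Bok scored 36.8 on the −log10 p scale in Early-B cells and 4.13 in progenitors, and Hrk 8.16 in Early-B cells and 26.5 in progenitors. A listed start site of Hrk lay under a peak in progenitors but not in Early-B cells, so its 2 widths may belong to different peaks. For the pathway genes here and below, overlap of the leading peaks between the lists is not given.

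All 14 genes of the apoptosome, the caspases and their inhibitors had a peak in both lists, wider in Early-B cells at 8 and with a median log2 ratio of 0.06. The larger differences here were modest. They included Diablo, whose product SMAC relieves caspase inhibition (2543 bp in Early-B cells against 3520 bp in progenitors), the mitochondrial protease gene Htra2 (4795 bp in Early-B cells against 3650 bp in progenitors) and the inhibitor gene Birc3 (4314 bp in Early-B cells against 3439 bp in progenitors).

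The death receptor genes held larger differences. All 7 had a peak in both lists, wider in Early-B cells at 5, with a median log2 ratio of 0.13. At Fas, the receptor for FAS ligand, the leading peak covered 5110 bp in Early-B cells and 1294 bp in progenitors. At Tnfrsf10b, the TRAIL receptor gene, it covered 3902 bp in Early-B cells and 1012 bp in progenitors. At Tradd, an adaptor of TNF receptor signalling, it covered 4569 bp in Early-B cells and 1668 bp in progenitors, and Tnfrsf1a went the other way with 4169 bp in Early-B cells and 7456 bp in progenitors. These log2 ratios, between 1.45 and 1.98 at the first 3, exceed every one within the 10 genes. The leading peak of Fas scored 41.2 on the −log10 p scale in Early-B cells and 25.2 in progenitors. That of Tnfrsf10b scored 25.3 in Early-B cells and 14.1 in progenitors. Both were weak beside Tradd, with 113.1 in Early-B cells and 154.9 in progenitors.

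All 17 upstream regulators of the family had a peak in both lists as well, wider in Early-B cells at 12 and with a median log2 ratio of 0.22. The largest ratios were at Gfi1, a transcriptional repressor (8759 bp in Early-B cells against 2786 bp in progenitors), and at Stat5a, which carries the IL-7 signal (7123 bp in Early-B cells against 2444 bp in progenitors). Foxo1, which encodes a forkhead factor (7725 bp in Early-B cells against 3424 bp in progenitors), and Stat5b (7123 bp in Early-B cells against 3247 bp in progenitors) followed. Stat5a and Stat5b lie side by side and share the same Early-B peak, so they count as 1 region in that list. In progenitors their leading peaks were different ones, so 1 Early-B peak is set against separate progenitor peaks. How much of the ratios comes from this was not tested. Trp53, which encodes p53, had 5722 bp in Early-B cells and 6101 bp in progenitors.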

How the data were processed

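H3K4me3 ChIP-seq was analysed from 1 deposited peak list per group, assigned to Early-B cells or progenitors by its name, which is shared with the sample titles of that group only. Bowtie 1.1.2 and MACS 1.4.3, with the builds mm10 and GRCh38, are named per the submitters' processing notes, with no role for each. Pooling of replicates, use of input and settings: not given in the sources used here. Per the file headers each peak has a position, a length, a pileup (the authors' coverage signal) and a fold enrichment (the authors' ratio over background). A further pair of deposited columns with damaged names was taken, by values and order, for −log10 p and −log10 q, and no −log10 q exceeded its −log10 p. This column set is not the one MACS 1.4.3 is known to write, so which program made these columns is unsettled. The lists are permissive, with 33.2% of Early-B and 33.4% of progenitor peaks at q above 0.05. No read depth is known.

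Peaks within 5 kb of a gene span (RefSeq, GRCm38.p6) were taken, and peaks sharing at least 1 bp were called met. All 10 genes and all listed pathway and marker genes matched by symbol. Start sites came from RefSeq promoters. Python 3.11.15, numpy 2.4.6, pandas 2.3.3 and matplotlib 3.10.9 were used. On simulated lists at 1000 isolated genes, all 1000 classes and all 242 widths and overlaps of shared peaks were recovered. Each simulated gene held at most 1 peak per list, and shared peaks had the same centre. The choice of a leading peak and peaks of neighbouring genes were therefore not exercised. The 10 genes and all lists were chosen with earlier results of these data known. Named were all 10 genes and, per pathway list, genes without a peak in a list and the 4 with the largest width ratios, of which 1 is not reported here; Trp53, Gm37053, Cox4i2, Acoxl, Ftl1, Ggnbp1, the blood cell genes and some markers were named after their values were seen. Samples of microRNA, of Ago2 and of Early-T cells were not used.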

Additional observations from a re-analysis of the deposited data

How the results depend on the processing

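Each group has 1 list, and no replicate was left out. No paired analysis was possible because each group has a single peak list and no result comes from a test. The number of genes with a peak in both lists was 9 and stayed at 9 except in 2 settings: it was 10 with 10 kb around the gene, where an Early-B peak beyond the far end of Bik comes in, and 8 without peaks that touch other coding genes. Counts not named here kept within 1.5 times their value.

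Peak counts depended on the threshold. Early-B cells had 17 peaks and progenitors 15 at a −log10 p of at least 10, 23 and 18 at a q of at most 0.05, and 20 and 17 at a fold enrichment of at least 3. The Early-B list cut to the length of the progenitor list left 23 Early-B peaks. Peaks that met none of the other list numbered 4 in Early-B cells and 2 in progenitors at a −log10 p of at least 10, where a peak under the threshold in the other list no longer counts as met, 6 and 2 at a q of at most 0.05, and 5 and 2 at a fold of at least 3. They numbered 1 and 15 at equal list lengths, and 18 and 15 when 50% of each peak had to overlap. Early-B peaks of this kind numbered 7 with the gene span alone and 7 with 1 kb around it, since the other 4 of the 11, the one below Pmaip1 among them, lie further out.

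The leading peak was wider in Early-B cells at 5 genes, and by the length covered by all peaks at 8 genes, with Bcl2 (log2 ratio 0.16), Bcl2l1 (0.28) and Pmaip1 (0.10) changing direction. The covered length counts peaks of any strength, such as a 3951-bp Early-B peak at Bcl2l1 with a q above 0.05. How often covered length is greater in Early-B cells over all genes was not computed. Mcl1 moved to 1.17, the largest of the family, with its progenitor peak beyond 5 kb not counted, and Bak1 to 0.085. So the narrower Bcl2 domain in Early-B cells concerns its leading peak alone. At Bax the ratio was -0.022 with the widest peak as leading and -1.04 with the highest pileup, where the lists pick peaks at different ends of the gene. The pileup setting, the start-site setting and one without peaks that touch other coding genes were chosen after seeing the data.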
